A study of Rattus norvegicus with 6 samples.

Results

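Chaperones and protein-folding enzymes were examined in the rat adrenal gland through 77 probe sets annotated to 30 genes, out of 8740 probe sets that are not controls and 5147 named genes on the array. The genes were listed by symbol, with earlier results of these data known, and no measured value entered the rule: heat shock proteins and their co-chaperones, chaperones and disulfide isomerases of the endoplasmic reticulum (ER), and immunophilins, with every probe set that names one of them. The samples were adrenal glands of 2 rat strains, 3 arrays of the spontaneously hypertensive rat (SHR), an inbred strain with high blood pressure, and 3 of the Wistar-Kyoto rat (WKY), its usual normotensive comparison. The labels name no treatment, age or sex, and do not state whether each sample was a different animal. The p-values below therefore speak of the scatter among these arrays, part of which may be technical. Total RNA was hybridized to Affymetrix RG-U34A arrays, which carry 1 colour and read each transcript with sets of short oligonucleotides, and the deposited table holds a linear intensity for every probe set on each array.

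Array medians ran from 798.3 to 899.5, and the number of arrays limits the precision of every value below. Markers of both parts of the gland were bright on every array: the steroid transport gene Star was between 59059 and 93172 in SHR and between 73500 and 105013 in WKY, and the catecholamine synthesis gene Th was between 9723 and 14782 in SHR and between 10446 and 13405 in WKY. The instrument files divide the arrays into 2 hybridization runs, the first with SHR replicate 1 and all 3 WKY arrays and the second with SHR replicates 2 and 3. In a whole organ, fewer cells of a type and less RNA per cell cannot be told apart.

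Chaperones bind proteins that are not yet folded, or have lost their fold, and keep them from clumping until they reach their shape. In the cytosol the HSP70 proteins do this with J-domain partners (DNAJ proteins) and nucleotide exchange factors, and hand some clients, steroid hormone receptors among them, to HSP90. In the ER, BiP (Hspa5), GRP94 (Hsp90b1) and the lectin chaperones calnexin and calreticulin work beside disulfide isomerases on secreted and membrane proteins, and in mitochondria HSP60 and HSP10 form a folding chamber. Heat and other stress raise the cytosolic set through the factor HSF1, and unfolded protein in the ER raises the ER set through the unfolded protein response. The adrenal cortex imports many enzymes into mitochondria and ER for steroid synthesis, and the medulla folds the proteins of its secretory granules.

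The question was whether transcripts of this machinery had other levels in SHR than in WKY adrenals. None of the member probe sets passed: of 77, 73 were bright enough to be tested, and limma called 0 at a Benjamini-Hochberg adjusted p under 0.05 over all tested probe sets, where it called 102 of 5244 (1.95%), 1.07% higher and 0.877% lower in SHR. The smallest adjusted p of a member was 0.102. At an unadjusted p under 0.05 there were 11 of 73 (15.1%), 7 higher and 4 lower in SHR, beside 728 of all 5244 (13.9%, made up of 6.77% higher and 7.11% lower). The 3 SHR arrays lay wholly above or below the 3 WKY arrays in 17 of the 73 (23.3%), 9 above and 8 below, beside 20.7% of all tested probe sets (10.2% above and 10.5% below), so both shares lay near the background. Differences are given from here on as SHR minus WKY on the scale log2(intensity + 181.5), which understates changes of dim probe sets, with the standard error of the limma fit.

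The median difference of the members was 0.086, against -0.0069 for all tested probe sets. The members had 45 values above 0 and 28 below, beside 2573 above and 2671 below among all tested probe sets. Of the 73, 64 (87.7%) lay within 0.5 of 0, beside 81.9% of all tested probe sets. The median standard error was 0.18, and an interval of a typical member spans changes in either direction, so these data do not show that the levels were equal. The largest differences were in the heat-inducible Hsp70 genes, a probe set of Hspa9, the small heat shock protein gene Hspb1 and the isomerase gene Pdia4.

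**Figure D1:**
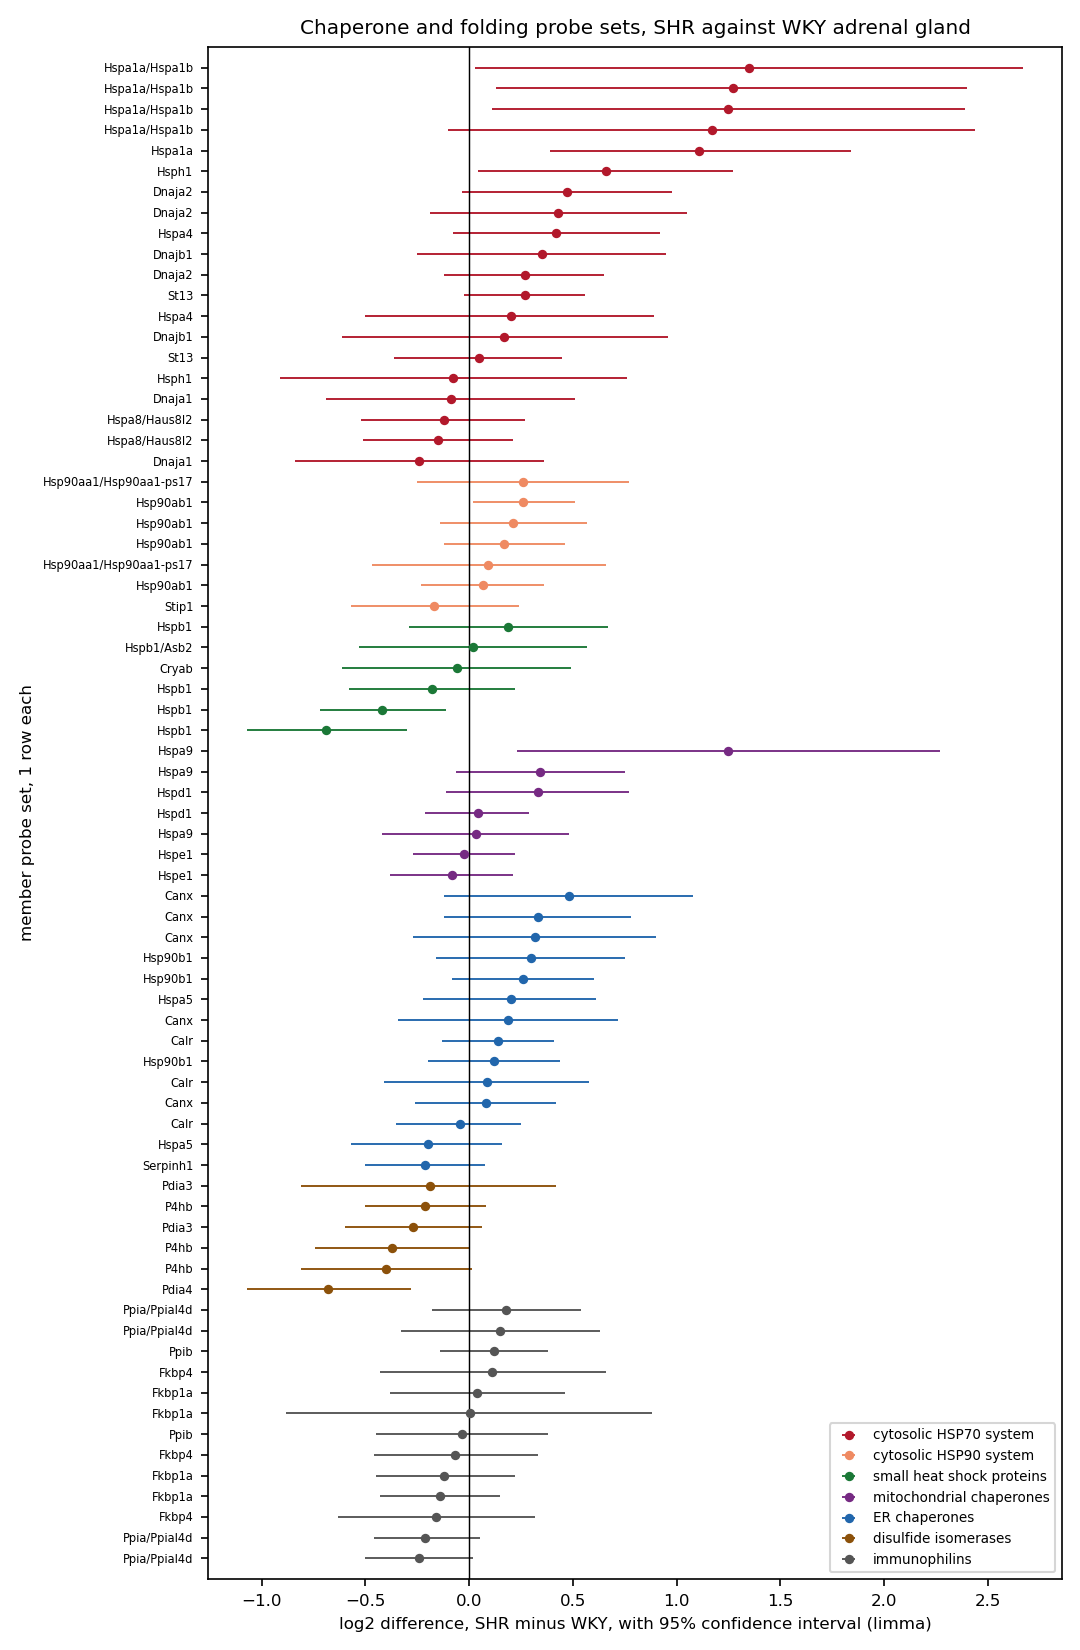
Log2 difference, SHR minus WKY (horizontal axis), of each of the 73 tested member probe sets (1 row each, coloured by role and ordered by value within a role), with limma's 95% confidence interval. The 5 Hsp70 probe sets at the top lie between 1.11 and 1.35 with wide intervals, all 6 disulfide isomerase probe sets lie below 0, and 64 of the 73 lie within 0.5 of 0.

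The array's annotation sets what can be said of single genes. Of the 77 probe sets, 63 name 1 gene and 14 name several, and 4 members have no probe set of their own: Hspa1b (joint with Hspa1a), Hspa8 (with Haus8l2), Hsp90aa1 (with the pseudogene Hsp90aa1-ps17) and Ppia (with Ppial4d and LOC100911252). The 4 untested probe sets were the only one of Hspa2, 1 of 2 of Cryab, 1 of 3 of Hspa5 and one that Hsp90aa1 shares with unrelated genes such as haemoglobin and ribosomal RNA genes. Hspa2, a testis-enriched Hsp70, was at 18.4, 16.6 and 317 in SHR replicates 1, 2 and 3, against 254, 19.8 and 271 in the WKY replicates, values of the order of the pseudocount of 181.5. Of the 25 members with several tested probe sets, 12 had only positive differences, 5 only negative ones and 8 had both signs.

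The heat-inducible Hsp70 genes Hspa1a and Hspa1b, near-identical neighbours that the array separates poorly, had the highest differences in the cytosolic group, and the size of these depended on SHR replicate 3. The probe set named for Hspa1a alone (Z75029_s_at) was at 30619, 46681 and 84831 in SHR replicates 1, 2 and 3, against 22771, 21407 and 24257 in the WKY replicates. All 3 SHR arrays lay above all 3 WKY arrays, and the means were 54044 ± 27846 in SHR and 22811 ± 1426 in WKY (SD, n = 3 each), a ratio of 2.37. The log2 difference was 1.11 ± 0.32 (limma adjusted p = 0.147), with an interval from 0.39 to 1.84.

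The 4 probe sets shared by both genes showed the same order of arrays within SHR. L16764_s_at was at 12555, 21054 and 58225 in SHR replicates 1, 2 and 3, against 7535, 11835 and 12052 in the WKY replicates. Z27118cds_s_at was at 12125, 15471 and 55033 in SHR replicates 1, 2 and 3, against 9791, 7625 and 9965 in the WKY replicates. AA848563_s_at was at 6369, 9017 and 37756 in SHR replicates 1, 2 and 3, against 5176, 3992 and 5985 in the WKY replicates. In these 3 the strains did not overlap, and SHR replicate 1 was the SHR array nearest to WKY. In the other, rc_AA818604_s_at, the strains overlapped, at 6129, 10859.6 and 36710.1 in SHR replicates 1, 2 and 3, against 6247, 4956 and 6643 in the WKY replicates. The differences were 1.27 ± 0.49, 1.25 ± 0.49, 1.35 ± 0.57 and 1.17 ± 0.55, with limma adjusted p from 0.301 to 0.395. The probe sets share target sequence and are not separate evidence.

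SHR replicate 3 read between 2.19 and 4.91 times the mean of the other 2 SHR arrays in the 5 Hsp70 probe sets. Without it, the 4 that did not overlap stood at 0.59 to 0.73 (adjusted p from 0.175 to 0.414), and in a fit blocked by hybridization run, which sets SHR replicate 1 against the WKY arrays, at 0.29 to 0.42 (0.762 to 0.918). With the fluidics module as a block, which leaves few samples to set against each other, the difference of L16764_s_at was 1.87 and passed (limma adjusted p = 0.0372). The hexokinase probe sets, which compare the 3' with the 5' end of the transcript and gain in ratio with RNA breakdown, gave ratios of 2.16, 4.21 and 2.09 in SHR replicates 1, 2 and 3, against 1.96 to 2.54 in WKY. The same ratio for GAPDH was 0.93, 0.947 and 1.09 in SHR replicates 1, 2 and 3, against 0.901 to 1.14 in WKY, and for beta-actin it was 1.19, 1.35 and 1.22, against 1.25 to 1.38 in WKY. SHR replicate 3 was the lowest SHR array for hexokinase and the highest for GAPDH, and the part of RNA quality in the Hsp70 values was not tested.

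Some other cytosolic members were also highest in SHR replicate 3, without a strain difference that passed. Dnajb1, the J-domain partner most tightly linked to heat-induced Hsp70, was at 5756, 7558 and 16057 in SHR replicates 1, 2 and 3, against 6597, 8472 and 8694 in the WKY replicates by rc_AA945704_at. By its other probe set, rc_AA859648_at, it was at 7068, 7927 and 14794 in SHR replicates 1, 2 and 3, against 6849, 7189 and 8067 in the WKY replicates. Hsph1, an Hsp110 nucleotide exchange factor, was at 1926, 3298 and 6239.5 in SHR replicates 1, 2 and 3, against 3231, 4224 and 3488 in the WKY replicates by rc_AI236601_at. In all 3, SHR replicate 3 was the highest of the 6 arrays and the other 2 SHR arrays lay below or within the WKY range, with differences of 0.17 ± 0.34, 0.35 ± 0.26 and -0.076 ± 0.36. The dimmer Hsph1 probe set, AA108277_at, did separate the strains, at 800, 942 and 1325 in SHR replicates 1, 2 and 3, against 648, 668 and 417 in the WKY replicates (0.66 ± 0.27, limma adjusted p = 0.32). The 2 Hsph1 probe sets thus had opposite signs.

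Dnaja1, another J-domain protein, was at 10916, 14419 and 23835 in SHR replicates 1, 2 and 3, against 15386, 15822 and 18598 in the WKY replicates by U53922_at. Hspa8, the constitutive Hsc70, was at 50377, 55498 and 75446 in SHR replicates 1, 2 and 3, against 68847, 59621 and 69907 in the WKY replicates by the brighter of its 2 joint probe sets, rc_AI234604_s_at. Their differences were -0.089 ± 0.26 and -0.15 ± 0.16, and in both SHR replicate 1 was the lowest array and SHR replicate 3 the highest. By the other Dnaja1 probe set, rc_AA800551_at, WKY replicate 1 was the highest array, at 3078 against 2850 in SHR replicate 3 (-0.24 ± 0.26). Across all members, SHR replicate 3 was the highest of the 6 arrays in 21 of 73 tested probe sets (28.8%), beside 13.6% of all tested probe sets. The 21 include the 5 Hsp70 probe sets, which share target sequence. The shares are not matched for brightness: 67 of the 73 passed a filter at the 60th percentile, beside 3496 of all 5244. SHR replicate 3 also had the lowest array median, 798.3, and was the lowest array in 6 of the 73 and in 23.2% of all tested probe sets. It exceeded the mean of the other 2 SHR arrays by more than 1 on the log2 scale in 7 of the 73 (9.59%), beside 2.08% of all: the 5 Hsp70 probe sets, 1 of Dnajb1 and 1 of Hsph1. This is a description of 1 array, which the strain comparison cannot test.

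**Figure D2:**
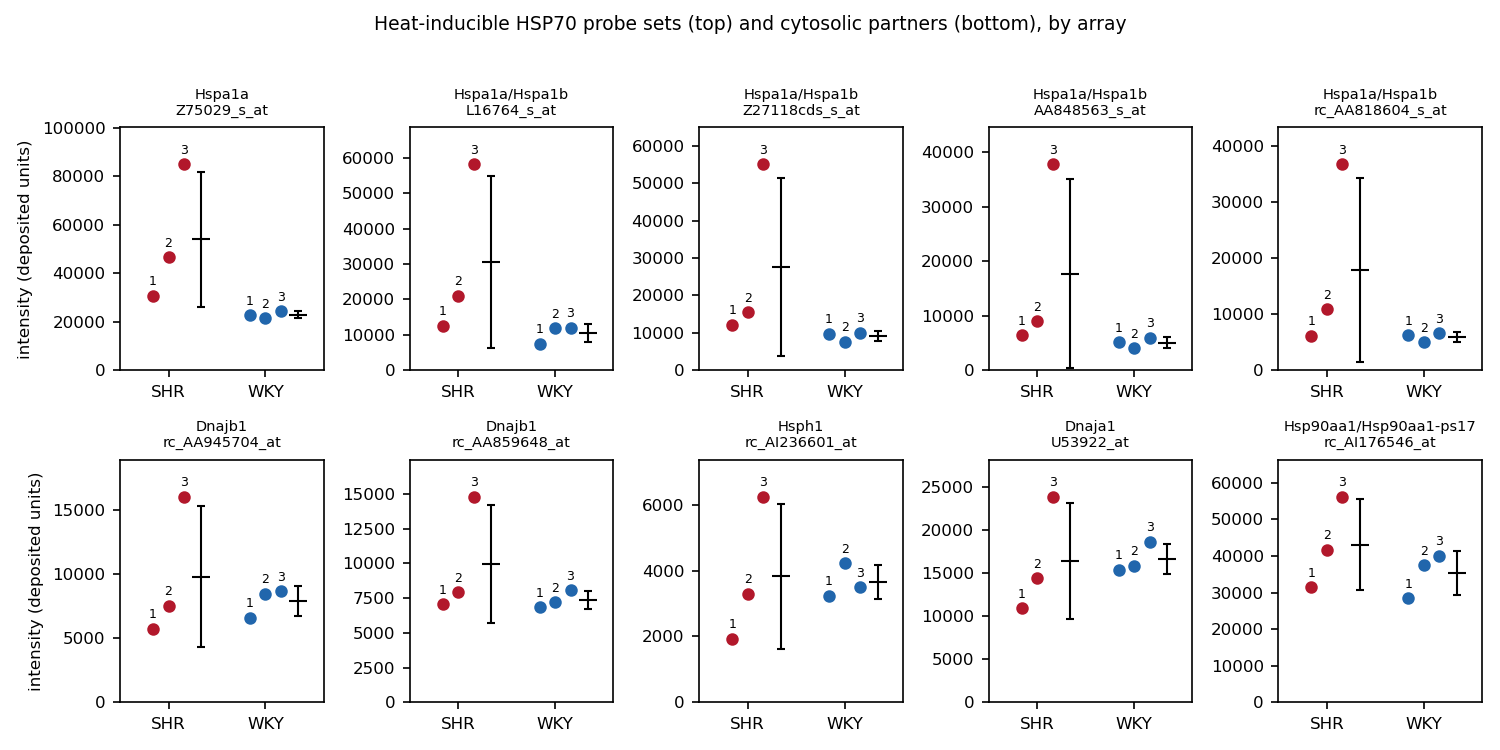
Deposited intensity (vertical axes, starting at 0) by array for the 5 probe sets of Hspa1a and Hspa1b (top row) and for 5 probe sets of Dnajb1, Hsph1, Dnaja1 and Hsp90aa1 (bottom row). Points are arrays with their replicate number, SHR in red and WKY in blue, and the bars beside them are means with the SD (n = 3). SHR replicate 3 is the highest point in all 10 panels, at 84831 against 21407 to 24257 in WKY for Hspa1a. The other Dnaja1 probe set, not drawn, was highest in WKY replicate 1.

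The remaining Hsp70 partners had differences within 0.5 of 0. Dnaja2, a J-domain protein, was positive in all 3 probe sets, at 0.27 to 0.47, and Hspa4, an Hsp110 relative, in both, at 0.20 and 0.42. SHR replicate 3 was not the highest array in any of these 5. St13, the Hsp70-interacting protein Hip, did not overlap between strains by X82021cds_at, at 7654, 7259.8 and 7984 in SHR replicates 1, 2 and 3, against 5955, 6718 and 6271 in the WKY replicates (0.27 ± 0.13, limma adjusted p = 0.395). Its other probe set was at 0.047. Over the whole cytosolic Hsp70 group, 15 of 20 tested probe sets were positive, 0 passed, and the median was 0.31. Of all 5244 tested probe sets, 2573 were positive. The 15 include the 5 probe sets of Hspa1a and Hspa1b, which share target sequence and also enter the median.

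The promoters of 3 of these chaperones are shown because they hold the sequence that HSF1 is known to recognise and because their transcripts took different courses across the arrays. Each window is the 250 bases before the gene start in RefSeq (GRCr8), read 5′ to 3′ on the gene's strand, with matches to the heat shock element in capitals. The element was searched on both strands as 3 alternating units, GAA, TTC and GAA or TTC, GAA and TTC, each 2 bases from the next, and matches may overlap. The windows lie at chr12:10427118-10427367, plus strand (Hsph1), chr8:50080264-50080513, plus strand (Hspa8) and chr9:64084077-64084326, plus strand (Hspe1).
Hsph1: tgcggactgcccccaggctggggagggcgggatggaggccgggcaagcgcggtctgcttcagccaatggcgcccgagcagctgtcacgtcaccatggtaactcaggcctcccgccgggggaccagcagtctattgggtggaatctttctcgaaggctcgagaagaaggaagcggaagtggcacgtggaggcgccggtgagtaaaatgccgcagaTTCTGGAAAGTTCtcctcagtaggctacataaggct
Hspa8: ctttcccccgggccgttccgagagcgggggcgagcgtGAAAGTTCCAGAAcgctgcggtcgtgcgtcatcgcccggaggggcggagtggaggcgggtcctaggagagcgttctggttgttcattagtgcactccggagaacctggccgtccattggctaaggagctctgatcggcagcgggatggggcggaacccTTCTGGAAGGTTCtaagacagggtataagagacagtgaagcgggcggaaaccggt
Hspe1: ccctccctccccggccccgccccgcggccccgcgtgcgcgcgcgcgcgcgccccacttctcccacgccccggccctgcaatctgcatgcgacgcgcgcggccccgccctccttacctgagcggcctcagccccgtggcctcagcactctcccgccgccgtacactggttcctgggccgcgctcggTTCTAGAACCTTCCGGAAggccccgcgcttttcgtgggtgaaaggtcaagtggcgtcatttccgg

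Of the 30 members, 24 had a window in the RefSeq table, and 5 of them (20.8%) held the element, beside 222 of all 33469 windows (0.663%). They were Hspa8, Hsph1, Hspd1, Hspe1 and Serpinh1. Hspd1 and Hspe1 start on opposite strands with overlapping windows, so that 1 stretch counts for both. By their brightest probe sets, 2 of these 5 genes, Hsph1 and Hspa8, were highest in SHR replicate 3, and Hspd1, Hspe1 and Serpinh1 were not. The windows of Hspa1a and Dnajb1 did not hold these letters, which says nothing about the factor. Hspa1b, Hsp90aa1, Dnaja2, Cryab, Pdia3 and St13 had no window. A match is a description of the letters, not a site of binding.

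Of the 7 tested HSP90 group probe sets 6 were positive and 0 passed, with a median of 0.17. Hsp90ab1, the constitutive form, was positive in all 4 probe sets, at 0.067 to 0.26. One of these, rc_AI008074_s_at, did not overlap, at 25303, 26548 and 26336 in SHR replicates 1, 2 and 3, against 19956, 22988 and 22147 in the WKY replicates (0.26 ± 0.11, limma adjusted p = 0.316). The brightest Hsp90ab1 probe set, rc_AI236795_s_at, overlapped, at 63034, 58123 and 61237 in SHR replicates 1, 2 and 3, against 54582, 62468 and 46169.8 in the WKY replicates. Hsp90aa1, the inducible form, was at 31435, 41759 and 56202 in SHR replicates 1, 2 and 3, against 28415, 37559 and 40030.2 in the WKY replicates by its brighter joint probe set. There the difference was 0.26 ± 0.22, SHR replicate 3 was again the highest array, and blocking by hybridization run turned the sign (-0.15). Stip1, which joins Hsp70 to Hsp90, was at -0.17 ± 0.18, with SHR arrays from 2893 to 3126 and WKY arrays from 2689 to 3909.

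**Figure D3:**
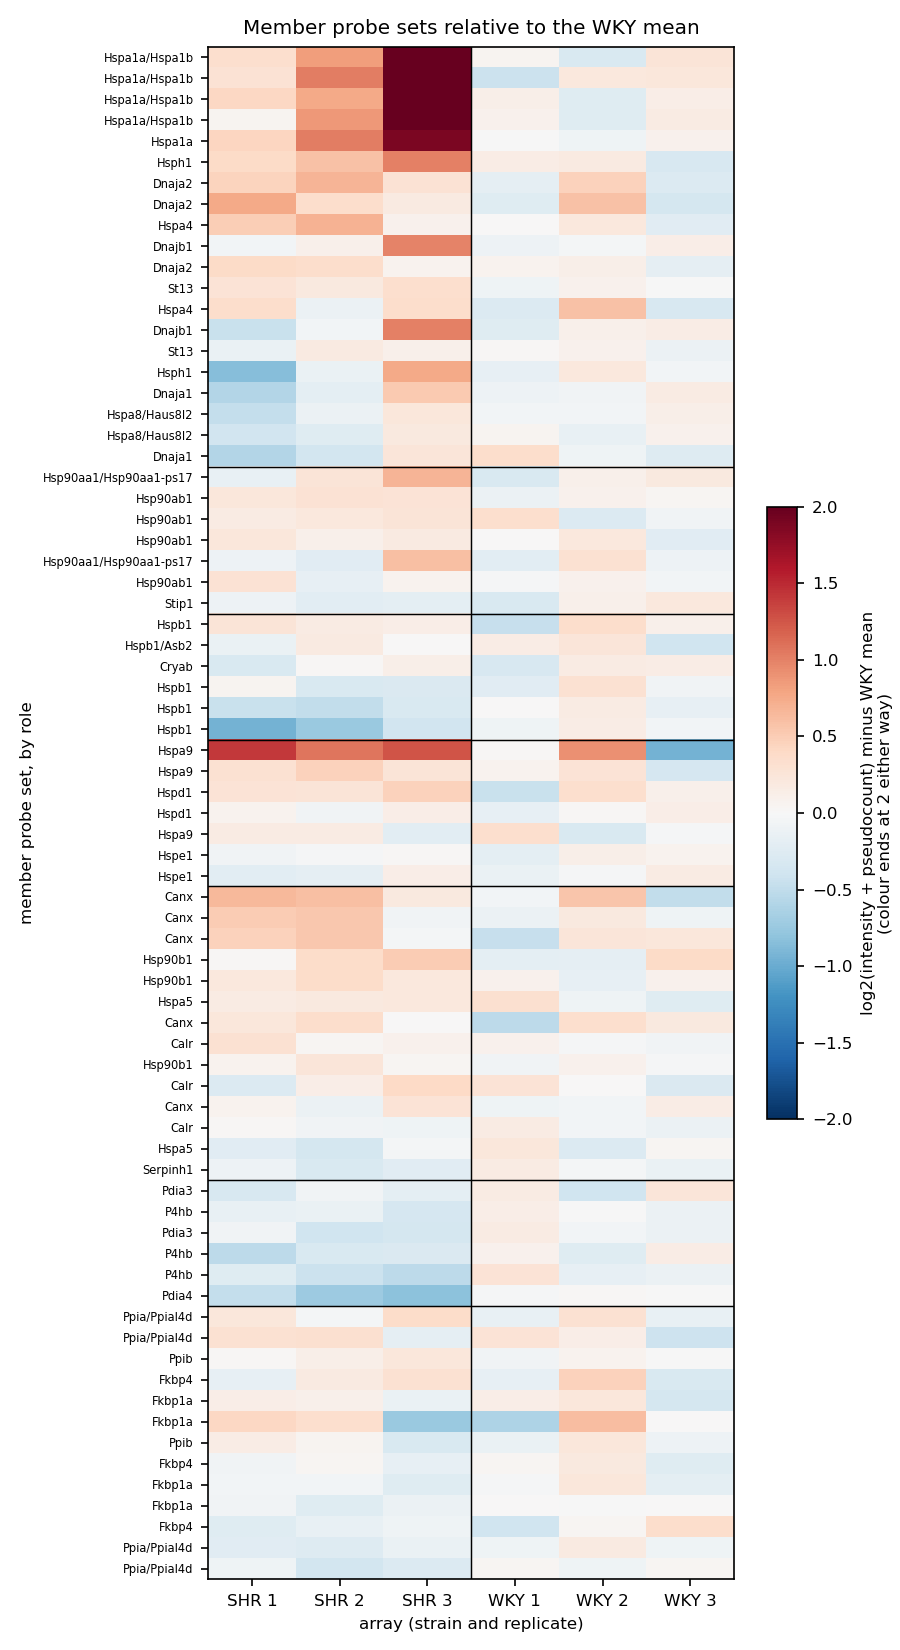
Colour map of the 73 tested member probe sets (rows, grouped by role with the same order as in the plot of log2 differences) over the 6 arrays (columns, SHR left of WKY). Colour gives log2(intensity + pseudocount) minus the mean of the 3 WKY arrays, red above and blue below, with the scale ending at 2 in either direction. The deepest red lies in SHR replicate 3 for the Hsp70 rows, and the disulfide isomerase rows are pale blue over most of SHR.

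The small heat shock proteins, which hold unfolded clients without using ATP, gave the smallest p among the members, but their probe sets disagreed. Hspb1 (HSP27), also known as an actin-binding protein, was lower in all SHR arrays by rc_AA998683_g_at, at 6887, 7999 and 10309 in SHR replicates 1, 2 and 3, against 12689.7, 14827 and 12873 in the WKY replicates. The means were 8398 ± 1746 in SHR and 13463 ± 1185 in WKY, a difference of -0.69 ± 0.17 (limma adjusted p = 0.102, interval -1.07 to -0.30). By M86389cds_s_at the strains did not overlap either, at 9547, 9274 and 10589.5 in SHR replicates 1, 2 and 3, against 13206, 14659 and 11697 in the WKY replicates (-0.42 ± 0.13, adjusted p = 0.195). These 2 kept their sign in every alternative tried.

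The brightest Hspb1 probe set, rc_AI176658_s_at, overlapped between strains, at 20177, 15545 and 15692 in SHR replicates 1, 2 and 3, against 16479, 23822 and 18348 in the WKY replicates. Its difference was -0.18 ± 0.17, and rc_AA998683_at, named for the same sequence as the first, was positive at 0.19 ± 0.21. A probe set shared with Asb2 was at 0.018. Hspb1 thus ran from -0.69 to 0.19 over its 5 probe sets, and the cause of the disagreement was not tested. Cryab, alpha-B-crystallin, was at 718, 949 and 1022 in SHR replicates 1, 2 and 3, against 711, 1072 and 1051 in the WKY replicates by its tested probe set, with strains that overlapped and a difference of -0.058 ± 0.24.

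Of 7 tested probe sets of mitochondrial chaperones 5 were positive and 0 passed, and the median was 0.041. Hspd1 (HSP60) was at 89418, 81370.3 and 93447 in SHR replicates 1, 2 and 3, against 76107, 87156 and 94051 in the WKY replicates by its brighter probe set, X54793_at. Hspe1 (HSP10) was at 80756, 83411 and 85511 in SHR replicates 1, 2 and 3, against 73911, 91883 and 88948 in the WKY replicates by rc_AI170613_at. The differences were 0.041 ± 0.11 (interval -0.21 to 0.29) and -0.023 ± 0.11 (-0.27 to 0.22), which are among the 3 narrowest intervals of the members. The other probe set of Hspd1 was at 0.33 and that of Hspe1 at -0.083.

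Hspa9 (mortalin), the mitochondrial Hsp70, was discordant. Its dim probe set rc_AA944973_at did not overlap, at 1277, 967 and 1132 in SHR replicates 1, 2 and 3, against 378, 855 and 102 in the WKY replicates. WKY replicate 3 lay below the pseudocount there, and the difference of 1.25 ± 0.44 (limma adjusted p = 0.258) was 0.77 without that array, 0.69 with the fluidics module as a block, 1.80 at a pseudocount of 1 and 0.71 at 4 times the pseudocount. The brighter S75280_s_at and S78556_at gave 0.34 ± 0.18 and 0.033 ± 0.20, with overlapping strains.

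Over the ER chaperones, 11 of 14 tested probe sets were positive, the median was 0.17, and 0 passed even an unadjusted p of 0.05. Hspa5 (BiP), the central ER Hsp70 and a usual readout of ER stress, was at 15404, 14130.1 and 17603 in SHR replicates 1, 2 and 3, against 21219, 14970.3 and 18510.4 in the WKY replicates by M14050_s_at (-0.20 ± 0.16, limma adjusted p = 0.618). Its second tested probe set, S63521_i_at, had the other sign, at 0.20 ± 0.18. Hsp90b1 (GRP94), the ER form of HSP90, was positive in all 3 probe sets, at 0.12 to 0.30. The strains were apart in S69316_s_at, at 3908, 4360.2 and 3913 in SHR replicates 1, 2 and 3, against 3563, 2966 and 3578 in the WKY replicates (0.26 ± 0.15, adjusted p = 0.478). They overlapped in the brightest, S69315_at, at 10416, 13126 and 14499 in SHR replicates 1, 2 and 3, against 8854, 8973 and 13305 in the WKY replicates.

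Calnexin and calreticulin, which bind sugar chains of new glycoproteins, overlapped between strains in all of their probe sets. Calr was at 26149.8, 21597 and 22313 in SHR replicates 1, 2 and 3, against 22475, 20783 and 20175 in the WKY replicates by its brightest probe set, D78308_at, and ran from -0.046 to 0.14 over 3. Canx was at 16865, 16388 and 12208 in SHR replicates 1, 2 and 3, against 10273, 15773 and 7538 in the WKY replicates by rc_AI010725_g_at, and was positive in all 5 probe sets, from 0.08 to 0.48, with limma adjusted p of 0.457 or more. Serpinh1 (HSP47), the chaperone of procollagen, was at 15515, 13525 and 14185 in SHR replicates 1, 2 and 3, against 18704, 16304 and 15304 in the WKY replicates (-0.21 ± 0.13, adjusted p = 0.493). The strains overlapped there.

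Windows of 2 ER chaperones are printed because the ER stress element, CCAAT followed after 9 bases of any kind by CCACG, marks genes of this group. The element was searched on both strands in the same windows and stands in capitals. The windows lie at chr3:38452766-38453015, plus strand (Hspa5) and chr7:23012294-23012543, minus strand (Hsp90b1).
Hspa5: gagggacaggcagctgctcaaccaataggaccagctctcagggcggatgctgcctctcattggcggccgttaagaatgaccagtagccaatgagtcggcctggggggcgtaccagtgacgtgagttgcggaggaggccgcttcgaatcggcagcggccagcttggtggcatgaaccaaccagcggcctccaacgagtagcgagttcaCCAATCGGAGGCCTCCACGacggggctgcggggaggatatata
Hsp90b1: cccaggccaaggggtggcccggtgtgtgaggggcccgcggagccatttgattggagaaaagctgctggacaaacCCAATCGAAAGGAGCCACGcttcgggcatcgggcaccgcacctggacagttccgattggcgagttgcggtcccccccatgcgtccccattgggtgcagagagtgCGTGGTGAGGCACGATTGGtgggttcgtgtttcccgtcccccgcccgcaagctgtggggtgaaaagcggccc
The element was in 4 of the 24 members with a window (16.7%), Hspa5, Hsp90b1, Calr and Canx, beside 22 of all 33469 windows (0.0657%). All 4 overlapped between strains by their brightest probe sets.

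The disulfide isomerases, which form and rearrange the disulfide bonds of proteins in the ER, had lower SHR means in all 6 probe sets, and none passed. Pdia4 (ERp72) was at 1548, 1268 and 1175 in SHR replicates 1, 2 and 3, against 2179.9, 2264 and 2219 in the WKY replicates. No SHR array reached the WKY range, and the means were 1330 ± 194 in SHR and 2221 ± 41.9 in WKY (SD, n = 3 each), a ratio of 0.599. The difference was -0.68 ± 0.17 (limma adjusted p = 0.109, interval -1.07 to -0.28), and -0.47 when blocked by hybridization run (adjusted p = 0.626).

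P4hb, which is both a disulfide isomerase and the beta subunit of the collagen prolyl 4-hydroxylase, did not overlap between strains in any of its 3 probe sets. Of all tested probe sets, 20.7% showed no overlap in either direction. X02918_at and X02918_g_at are named for the same sequence and are not separate evidence. M21476_s_at was at 2966, 2595 and 2402 in SHR replicates 1, 2 and 3, against 4337, 3148 and 3257 in the WKY replicates. X02918_g_at was at 4216, 4934 and 4975 in SHR replicates 1, 2 and 3, against 6536, 5145 and 6793 in the WKY replicates. X02918_at was at 11854, 11955 and 10429 in SHR replicates 1, 2 and 3, against 14433, 13091 and 12104 in the WKY replicates. The SHR arrays were the lower ones in each, with differences of -0.40 ± 0.18, -0.37 ± 0.16 and -0.21 ± 0.13 and limma adjusted p of 0.374, 0.356 and 0.513. When blocked by hybridization run they were -0.24, -0.52 and -0.15. Pdia3 (ERp57), the partner of calnexin and calreticulin, overlapped, at 11627, 9172 and 9545 in SHR replicates 1, 2 and 3, against 13675, 11772 and 11235 in the WKY replicates by its brighter probe set (-0.27 ± 0.14) and at -0.19 by the other.

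Markers of other cell types, each read by its gene's brightest own probe set, stand beside these values. Of 12 tested fibroblast and capsule matrix markers, 4 were called lower and 0 higher, and the summed intensity of the 13 on the array ran from 88880 to 108348 in SHR and from 118392 to 134491 in WKY. Of 11 medulla markers 1 was called lower, the noradrenaline synthesis gene Dbh, and their sum ran from 45743 to 56612 in SHR and from 62349 to 70334 in WKY. By sign 9 were lower and 2 higher, and they differed in size. The ratio of the SHR to the WKY mean was 0.391 for Dbh and 0.673 for Pnmt. For Th, Chgb and Ddc, which overlapped between strains, it was 0.992, 0.948 and 1.10. Slc18a2 lay above WKY, at a ratio of 2.2. For the 8 cortex markers the sums overlapped, from 305547 to 434618 in SHR and from 330300 to 477370 in WKY. Fat cell sums also overlapped (44084 to 55964 in SHR, 49136 to 89001 in WKY), as did leukocyte sums (14227 to 17589 in SHR, 16993 to 33140 in WKY), with 1 marker of each list called lower. Over all tested probe sets of the lists, and not the brightest alone, 7 of 27 matrix, 5 of 19 fat and 3 of 9 leukocyte probe sets were called lower and 0 higher. Of all tested probe sets on the array, 0.877% were called lower and 1.07% higher. The tested probe sets of these lists read 12 matrix, 8 fat and 6 leukocyte genes, so several can stand for 1 gene. The lowest differences in the 3 lists, each of 1 probe set, were -1.78, -4.41 and -1.90. The -4.41 and -1.90 were not of the brightest probe sets read above. By brightest probe sets the fat list had 3 positive and 5 negative differences, from 0.38 (Lpl) to -2.0 (Cfd). Muscle marker sums lay above WKY, from 10078 to 11004 in SHR and from 7029 to 9056 in WKY. The 1 marker called higher was Acta2, at 3608 to 4296 in SHR and 1402 to 1487 in WKY. Every other muscle marker overlapped between strains. No marker of any list was at 0 on any array. The part of these markers in the isomerase values was not tested.

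**Figure D4:**
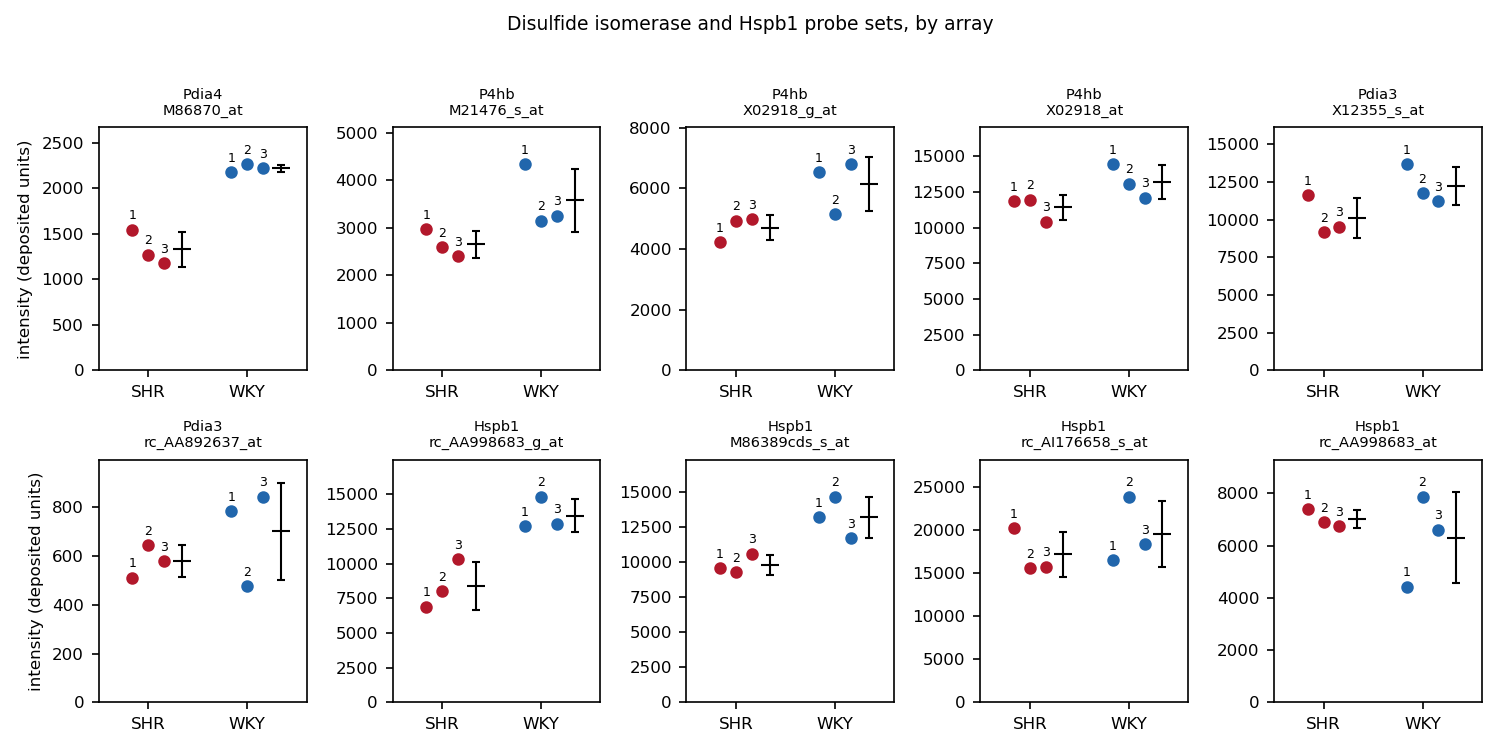
Deposited intensity (vertical axes, starting at 0) by array for the 6 disulfide isomerase probe sets and for 4 probe sets of Hspb1. Points are arrays with their replicate number, SHR in red and WKY in blue, and the bars beside them are means with the SD (n = 3). Pdia4, the 3 P4hb probe sets and 2 of the Hspb1 probe sets show no overlap between strains, with SHR below, while rc_AA998683_at of Hspb1 overlaps.

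The immunophilins, prolyl isomerases that bind cyclosporin or FK506, showed small differences: 6 of 13 tested probe sets were positive, and the median was -0.035. Ppia (cyclophilin A) was read by 4 joint probe sets with both signs. Its brightest was at 96322, 80342 and 106426 in SHR replicates 1, 2 and 3, against 74376, 102468 and 74315 in the WKY replicates (0.18 ± 0.16). In rc_AA818858_s_at the SHR arrays lay below, at 33069, 32606 and 35593 in SHR replicates 1, 2 and 3, against 36627, 43990.2 and 36608 in the WKY replicates (-0.21 ± 0.11, limma adjusted p = 0.459). Ppib (cyclophilin B), of the ER, was at 14311, 15140.1 and 16384 in SHR replicates 1, 2 and 3, against 13399, 14763 and 13935 in the WKY replicates by the brighter of 2 probe sets (0.12 ± 0.11).

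Fkbp1a (FKBP12), which binds rapamycin and the ryanodine receptor, ran from -0.14 to 0.039 over 4 probe sets. The strains did not overlap in rc_AA875594_s_at, at 6208, 5447 and 6004 in SHR replicates 1, 2 and 3, against 6531, 6474 and 6510.4 in the WKY replicates (-0.14 ± 0.13, adjusted p = 0.673). Fkbp4 (FKBP52), which rides with HSP90 on steroid receptors, ran from -0.16 to 0.11 over 3. All 13 immunophilin probe sets lay within 0.5 of 0, and 0 had an unadjusted p under 0.05.

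A wider list of 89 chaperones, co-chaperones and folding enzymes had 35 genes on the array, of which 30 were tested in 39 probe sets. None passed, and the median was -0.021. At an unadjusted limma p under 0.05 there were 7 of the 39 (17.9%), 3 higher and 4 lower, beside 13.9% of all tested probe sets. The 4 probe sets of smallest p belonged to 3 genes. Dnaja3, a mitochondrial J-domain protein, was at 326, 375 and 261 in SHR replicates 1, 2 and 3, against 1415, 1089.9 and 797 in the WKY replicates (-1.33 ± 0.27, limma adjusted p = 0.0582), and passed when the intensity trend was left out (0.0399). Hyou1 (GRP170), the ER nucleotide exchange factor of BiP, was the opposite case, at 5226, 4879 and 4027 in SHR replicates 1, 2 and 3, against 2920.2, 2352 and 2917 in the WKY replicates (0.75 ± 0.17, 0.0764). Its other probe set, U41853_at, was at 1527, 910.4 and 634 in SHR replicates 1, 2 and 3, against 321, 189 and 535 in the WKY replicates (1.17 ± 0.37, 0.193), with all SHR arrays above WKY.

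Ppif (cyclophilin D), the regulator of the mitochondrial permeability pore, was at 3139.6, 2922 and 2885 in SHR replicates 1, 2 and 3, against 5684, 3809.6 and 5776 in the WKY replicates (-0.71 ± 0.19, limma adjusted p = 0.125). All SHR arrays were below WKY there. Pdia6, an isomerase outside the members, was at 8386, 7699 and 6881 in SHR replicates 1, 2 and 3, against 9615, 9789 and 8838 in the WKY replicates (-0.30 ± 0.13), again with no overlap. It was named after its values were seen. Others of the disulfide isomerase family on this list overlapped between strains. Pdia2 was at -0.51 ± 0.31, and Erp29 was at 0.14 ± 0.24 and -0.14 ± 0.13 by its probe sets.

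A list of 20 genes of the heat shock, unfolded protein and other stress responses had 8 on the array. All were tested, in 12 probe sets. None passed, and the median was -0.24. At an unadjusted limma p under 0.05 there were 5 of the 12 (41.7%), 1 higher and 4 lower, beside 13.9% of all tested probe sets. The 4 smallest p fell to 3 genes. Nfe2l2 (NRF2), the regulator of antioxidant genes, was at 2043, 1485 and 1173 in SHR replicates 1, 2 and 3, against 2575, 2331 and 3523 in the WKY replicates (-0.78 ± 0.24, limma adjusted p = 0.177), and its second probe set was at 2561, 1579 and 928 in SHR replicates 1, 2 and 3, against 4810.4, 2592 and 3257 in the WKY replicates (-1.05 ± 0.35, 0.224). In both the SHR arrays were the lower ones. These Nfe2l2 probe sets are among the 5, are named for the same sequence and are not separate evidence. Ppp1r15a (GADD34), which reverses the block of translation in stress, was at 1612, 4423 and 6267 in SHR replicates 1, 2 and 3, against 773, 1638 and 1825 in the WKY replicates (1.31 ± 0.48, 0.268). SHR replicate 1 lay within the WKY range.

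In Ppp1r15a too, SHR replicate 3 was the highest array, as it was for the Hsp70 genes. Its other probe set was at 3952, 9361 and 20291 in SHR replicates 1, 2 and 3, against 2927, 5512 and 7723 in the WKY replicates (0.84 ± 0.56), with strains that overlapped. In no tested probe set of another gene on this list was SHR replicate 3 the highest array. That array was the lowest in both Nfe2l2 probe sets and in rc_AI172097_at of Hsf1. Eif2ak3 (PERK), an ER stress sensor, was at 479, 338 and 411 in SHR replicates 1, 2 and 3, against 680.3, 668 and 912 in the WKY replicates (-0.66 ± 0.25, limma adjusted p = 0.299). Hsf1, the heat shock factor, gave 0.076, -0.12 and -0.88 over 3 probe sets. The last, the dimmest of the 3, overlapped between strains and had an unadjusted limma p of 0.0485 (adjusted p = 0.353).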

How the data were processed

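Adrenal RNA of 3 SHR and 3 WKY samples was read on Affymetrix RG-U34A arrays, grouped by the titles. The authors deposited 1 linear intensity per probe set and array; its algorithm is not given in the sources used here. A common scaling is visible, with a mean of 2500 on every array after trimming 2% at each end, and the settings files written by the instrument, also deposited, gave the hybridization run (start times more than 60 minutes apart) and the fluidics module.

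Of 8799 probe sets, 59 controls were left out. The platform annotation gave 1 gene symbol for 7006 of the other 8740, several for 308 and none for 1426. Values were taken as log2(intensity + 181.5), the 20th percentile of all values above 0. Probe sets with a mean above the 40th percentile (5244) were tested with limma 3.58.1 in R 4.3.3 (lmFit, eBayes with an intensity trend, two-sided), with Benjamini-Hochberg adjustment over all of them and a threshold of 0.05. The procedure was tested on simulated data.

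The members and lists were chosen with earlier results of these data known. Values per array are given for member probe sets that pass or whose strains do not overlap and for the brightest probe set of 17 of the members, plus Hspa2 and others beside the Hsp70 results, chosen after their values were seen. Of the other lists they are given for the 4 of smallest p, plus Pdia6 and the second Ppp1r15a probe set, also chosen afterwards. Hsf1, Pdia2 and Erp29, given without values per array, were chosen afterwards too. Promoter windows came from RefSeq (GRCr8). Alternatives changed the scaling, pseudocount, filter, variance prior, blocks and arrays used.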

Additional observations from a re-analysis of the deposited data

How the results depend on the processing

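With 3 arrays per strain, small differences could not be resolved (the median standard error of a member was 0.18), and a dim probe set depends on the pseudocount. The count of all called probe sets, 102, was 60 without the intensity trend, 53 with the replicate block, 20 when blocked by hybridization run, 46 with the fluidics module as a block, 1 with the first run alone, and between 36 and 59 when 1 array was left out. The run block and the first run alone set only SHR replicate 1 against WKY, and the fluidics block leaves 1 residual degree of freedom. Same-numbered SHR and WKY arrays deviated from their strain means with correlations of 0.001, 0.01 and 0.071, and the replicate block called 0 members. Those correlations showed no effect of pairing over all tested probe sets, but 3 arrays per strain cannot show that the samples were unpaired. With the replicate block the unadjusted limma p of single members moved either way. It fell from 0.033 to 0.00475 for L16764_s_at and rose from 0.00417 to 0.0127 for Pdia4. As before, 11 members lay under 0.05. The smallest adjusted p of the stress regulators fell from 0.177 to 0.057. The labels do not say whether the replicate numbers pair the samples. The count of members called, 0, was 1 with the fluidics module as a block (L16764_s_at, 1.87) and 0 in every other alternative tried. The wider folding list had 1 call without the intensity trend (Dnaja3) and the stress regulators 2 with the fluidics block (both Ppp1r15a probe sets). Of 572 alternative values of 32 named member probe sets under 18 settings, 555 kept their sign and their side of the threshold and 1 passed. The other 16, of 6 probe sets, turned sign, all from a main value under 0.3 in size. The 32 leave out Dnajb1, Dnaja1 and the brighter Hsph1 probe set. Over all 73 tested member probe sets, 11 turned sign with the run block and 15 with the fluidics block. By SHR replicate 1 alone against the WKY mean, Dnajb1 rc_AA859648_at was at -0.055, from a main value of 0.35. With the run block and with the first run alone Hspb1 rc_AI176658_s_at was 0.062 and Hsp90aa1 rc_AI176546_at -0.15. With the fluidics block Hspa8 rc_AI234604_s_at was 0.014, Hspe1 rc_AI170613_at 0.035 and Cryab 0.14. Hspe1 was also 0.024 after quantile normalization and 0.015 at a common median. With 1 array left out, Hspd1 X54793_at ran between -0.042 and 0.11, Hspe1 ran between -0.12 and 0.037 and Cryab between -0.22 and 0.067. The cause of these shifts was not tested.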
